A study of Mus musculus with 3 samples.

Results

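Kinesin motor genes were examined in hearts of mouse embryos at embryonic day 15.5. The members are all genes that the array files name Kif followed by a number, with or without a letter, and the family was selected on the measured ratio of 1 Kif1c probe. They comprised 36 of 27630 gene names, read by 78 of 41174 gene probes. Each of the 3 Agilent arrays paired a Cy5 channel, labelled as RNA of 2 pooled Lrrc10-/- hearts, with a Cy3 channel, labelled as RNA of 2 pooled Lrrc10+/+ littermate hearts. Both channels were C57BL/6 whole heart and both came from matings of Lrrc10+/- parents. Lrrc10 encodes a leucine-rich repeat protein found in heart muscle cells, and the arrays address which transcripts differ before birth when it is lost. The wild-type labels also hold an adult age, but embryonic day 15.5, given by every other label, was used.

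Kinesins are motors that hydrolyse ATP and, with few exceptions, walk along microtubules. One set of family members builds the mitotic spindle, moves chromosomes and completes cytokinesis, so its transcripts are known from dividing cells. Another carries vesicles, organelles and RNA through the cytoplasm. The remaining members, treated here as other kinesins, includes microtubule depolymerases, ciliary proteins and atypical members that do not move.

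The Lrrc10 probe went against the labels. Its log2 ratio of Cy5 over Cy3 was 3.99, 4.78 and 4.45 on replicates 1, 2 and 3, a mean of 4.41 ± 0.40 (SD, n = 3), with an adjusted p of 0.000386 in limma. The gene that should be absent was therefore brighter in Cy5 on every array. Directions below refer to the channels labelled Lrrc10-/- (Cy5) and wild type (Cy3), and dye and genotype cannot be told apart because no array exchanged the dyes. The share of gene probes well above background was 63.5% to 88.7% in Cy5 and 68.9% to 93.2% in Cy3, lowest on replicate 3 in both channels. All 10 cardiomyocyte markers examined were well above background, 7 of them saturated in both channels on at least 1 array. In whole hearts, fewer cells of a type and less RNA per cell cannot be told apart.

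Kif1c, which encodes a motor that carries vesicles and RNA, is one of the transport kinesins and was picked for 1 probe with a high ratio whose sister probes have low ones. Its values are therefore given as a description, with no p-value. The 4 probes lie on the plus strand of chromosome 11 (mm9) and all were designed to the transcript NM_153103. They are shown first because they read the same transcript but gave different ratios. Runs of 3 or more cytosines are in capitals, since such runs were frequent in probes that were higher in Cy5 across the arrays. For probes near the 3′ end, bases 31 to 60 are shown.

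A_51_P438349, from transcript base 714, chr11:70517362-70518000, across an intron: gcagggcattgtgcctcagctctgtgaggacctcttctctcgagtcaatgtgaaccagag
A_52_P581390, from transcript base 2978, chr11:70539988-70541746, across an intron: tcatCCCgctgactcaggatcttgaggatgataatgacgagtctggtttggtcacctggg
A_52_P113465, from transcript base 4927, chr11:70543636-70543695: agacctggttttaaatgatcacacttCCCa
A_51_P217382, from transcript base 5045, chr11:70543754-70543813: acagaacagtctcatctacatggtgcgatg

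The probe from base 2978 (A_52_P581390) had log2 ratios of 1.21, 1.37 and 2.48 on replicates 1, 2 and 3, a mean of 1.69 ± 0.69 (SD, n = 3). Replicate 3 was higher than the other arrays by over 1 unit. Its Cy5 signal, as processed by the scanner software, was 2494, 1249 and 4022, against a Cy3 signal of 1127, 476 and 481, so Cy5 was brighter on each array. Levels are not comparable between arrays, as the median processed signal was 224 in Cy5 and 225 in Cy3 on replicate 2 but 142 and 141 on replicate 3.

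The 3 sister probes had lower ratios, with means above 0. The most 3′ probe (A_51_P217382) had log2 ratios of 0.46, 0.38 and 0.03, a mean of 0.29 ± 0.23 (SD, n = 3). The probe just before it (A_52_P113465) had 0.20, 0.26 and -0.18, a mean of 0.09 ± 0.24. The most 5′ probe (A_51_P438349) had 0.14, 0.36 and -0.01, a mean of 0.17 ± 0.18. All 3 sisters were lowest on replicate 3, the array on which the probe from base 2978 was highest.

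On each array in turn, the probe from base 2978 exceeded the mean of its 3 sisters by 0.94, 1.04 and 2.53 on the log2 scale, a mean of 1.5 ± 0.89 (SD, n = 3). Its position between the most 5′ probe and the 3′ pair means that the high ratio was bracketed on the transcript by low ones. On the 5′ side the bracket rests on 1 probe. The most 5′ probe also crosses an intron, at another place on the transcript. The part of intron crossing in these ratios was not tested. All 4 probes were well above background in both channels on 3 arrays, and none was saturated. The most 5′ probe was the dimmest of the 4. With the software's processed signals its mean was 0.303, against 1.87 for the probe from base 2978.

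**Figure D1:**
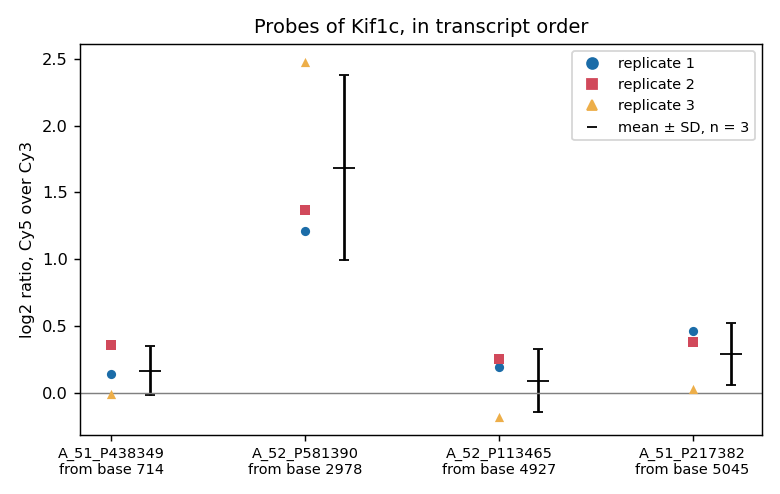
Log2 ratio of Cy5 (labelled Lrrc10-/-) over Cy3 (labelled wild type) for the 4 Kif1c probes in transcript order, with 1 point per array and bars for the mean ± SD (n = 3). The probe from base 2978 lies between 1.21 and 2.48, above every value of the other probes.

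**Figure D2:**
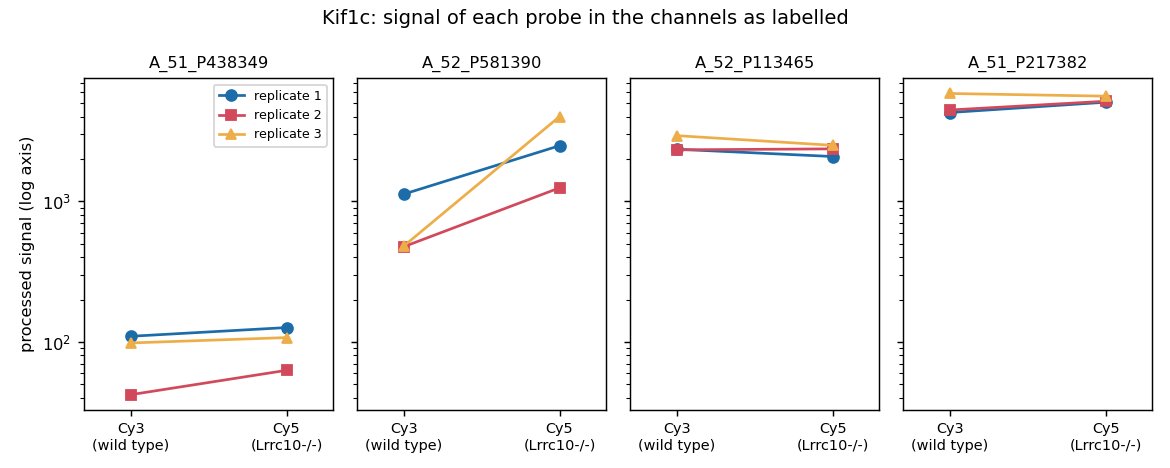
Processed signal (log axis) of each Kif1c probe in both channels, with a line per array. On all 3 arrays Cy5 lies further above Cy3 at A_52_P581390 than at any other probe; levels are not comparable between probes.

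Of the 78 kinesin probes, 62 were well above background on all arrays in at least 1 channel and were tested. They stood for 33 genes. The remaining 16 were not tested, which left no tested probe for Kif2b, Kif9 and Kif27. Of the tested probes, 51 passed in both channels, 11 through Cy3 alone and 0 through Cy5 alone. No kinesin probe was saturated on any array. The tested Kif15 probe A_51_P127412 was not well above background in Cy5 on any array, so its ratio is only a bound and is not given.

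Past an adjusted p of 0.05 in limma, 2 kinesin probes were higher in Cy5 (3.23% of 62) and 0 were lower. Over all 28326 tested probes, 1.39% were called higher and 0.00353% lower. One of these was the Kif1c probe from base 2978, whose ratio selected the family, and nothing is read from its call. Of the other 61 tested probes 1 was called higher (1.64%), Kif24 probe A_51_P319846, a share near that of all probes. At an unadjusted p under 0.05, 3 of these 61 were higher (4.92%) and 4 lower (6.56%), against 9.06% and 4.26% of all tested probes. With Kif1c included, the count called higher was 0 without replicate 1, 0 without replicate 2 and 5 without replicate 3 (8.2% of 61 tested, against 5.47% of all probes). It was also 0 with the software's own processed signals. The share of all probes is not given for that setting or without replicate 1 or 2, so these counts of 0 are not set against it.

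Kif24, Kif12 and Kif13a shared with Kif1c that 1 probe had a higher ratio than the rest of its gene. Kif24 encodes a motor of the centriole that restrains formation of cilia, Kif12 a kinesin of epithelial cells, and Kif13a a motor that carries endosomal cargo. The probes with the high ratios are shown because each stood apart from a probe of the same gene, again with runs of 3 or more cytosines in capitals (mm9, minus strand). The lower probes of Kif24 (A_52_P220858) and Kif12 (A_51_P344586), not shown, also held such a run. Those of Kif13a did not. For Kif24, bases 4 to 33 are shown, and for Kif12, bases 9 to 38.

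Kif24 A_51_P319846, chr4:41401628-41401687: aaatCCCtctgCCCCtgggataactttgag
Kif12 A_52_P221776, chr4:62826711-62826770: gggaCCCtgaCCCtagaccttgaacctgag
Kif13a A_52_P78746, chr13:46880704-46881883, across an intron: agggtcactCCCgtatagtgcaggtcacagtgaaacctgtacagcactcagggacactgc

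For Kif24, probe A_51_P319846 had log2 ratios of 0.83, 0.53 and 1.16, a mean of 0.84 ± 0.32 (SD, n = 3), and rose with an adjusted p of 0.0472 in limma. Cy5 signals were 1844, 1222 and 2583 and Cy3 signals 1101, 905 and 1022 after the software's processing. Cy5 was brighter on every array. The other Kif24 probe (A_52_P220858) had -0.19, 0.05 and -0.04, a mean of -0.06 ± 0.12, and was well above background in Cy5 on 2 of 3 arrays. The probe that rose was designed to a cDNA clone (AK020445) and not to the RefSeq transcript, and lies 62708 bases from the other on the same strand. With the software version as a block its adjusted p was 0.183, and it lost its call without replicate 1 (0.425) and without replicate 2 (0.161).

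For Kif12, probe A_52_P221776 had log2 ratios of 0.49, 1.23 and 0.80, a mean of 0.84 ± 0.37 (SD, n = 3), and missed the threshold (adjusted p = 0.0604 in limma). Its processed signal differed more between arrays than between channels, at 1724, 8543 and 25320 in Cy5 and 1057, 3148 and 14990 in Cy3. The other Kif12 probe (A_51_P344586) had -0.11, -0.09 and -0.01, a mean of -0.07 ± 0.06. That probe was dim, well above background in Cy5 on 2 of 3 arrays.

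For Kif13a, probe A_52_P78746 had log2 ratios of 0.68, 0.54 and 0.39, a mean of 0.54 ± 0.15 (SD, n = 3), positive on every array with an adjusted p of 0.113 in limma. Its sisters had means of -0.07 ± 0.27 (A_52_P512994) and -0.21 ± 0.31 (A_51_P149906). On each array the probe exceeded the mean of its sisters, by 0.80, 0.40 and 0.82.

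Probes of a gene gave similar ratios for most other kinesins. Leaving Kif1c aside, 19 kinesin genes had more than 1 tested probe measured on every array, and the median range between the lowest and highest probe mean was 0.19 on the log2 scale. Among all 6462 such genes it was 0.23. The range was over 0.5 for 3 of the 19 (15.8%), against 835 of all genes (12.9%). These were Kif12 (0.91), Kif24 (0.90) and Kif13a (0.74), and the values of Kif12 and Kif24 rest on the sister probes with a Cy5 signal near background. In Kif1c, picked for this gap, the range was 1.59.

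Kif1b, which encodes a carrier of mitochondria and synaptic vesicle precursors, followed with a range of 0.49, but in the other direction. Its probe A_52_P599014 had -0.36, -0.38 and -0.41, a mean of -0.39 ± 0.02 (SD, n = 3, unadjusted p = 0.0106, adjusted p = 0.214 in limma). That probe was dim, with processed signals of 133.5, 93.8 and 48.5 in Cy5 and 168.9, 133.7 and 195.8 in Cy3. With those signals its mean was -0.955 (adjusted p = 0.735 in limma), so the small SD is that of the main processing. The other Kif1b probes had means of -0.12 ± 0.36, -0.06 ± 0.26 and 0.10 ± 0.18. Kif4 probes that share 20 bases differed by 0.04, while Kif20a probes that share 33 bases differed by 0.31, so overlap did not fix how close a pair lay. Probes across an intron had a median of 0.03 (19 tested) and those within 1 exon had -0.06 (43 tested).

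**Figure D3:**
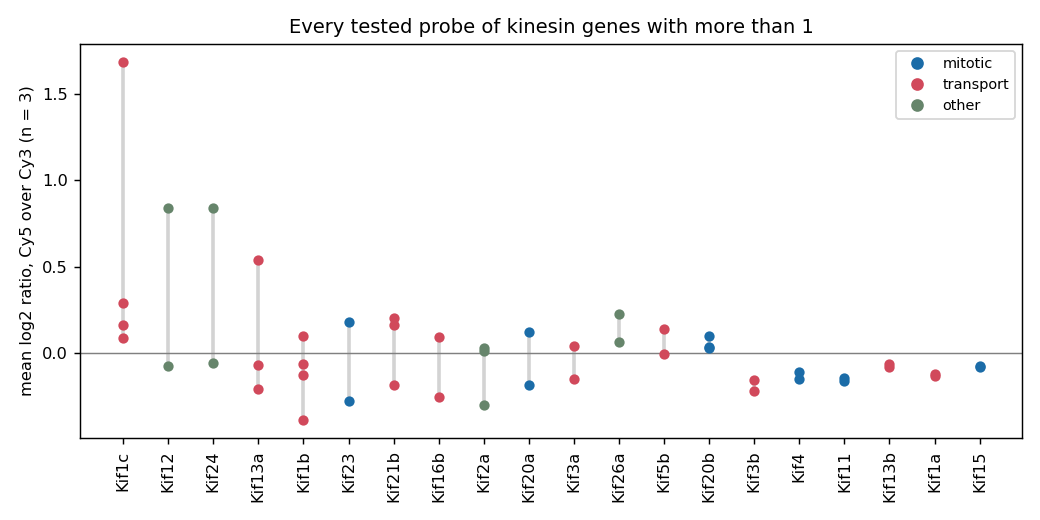
Mean log2 ratio (Cy5 over Cy3, n = 3 arrays) of every tested probe of the 20 kinesin genes with more than 1, ordered by range, with grey lines from lowest to highest and colours for the class. In Kif1c, Kif12, Kif24 and Kif13a 1 probe lies over 0.5 above the lowest; the Kif15 pair includes the probe not above background in Cy5.

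Mitotic kinesins gave small ratios. They comprised 12 genes and 24 probes, of which 18 probes of 11 genes were tested, and 0 passed the threshold in either direction in limma, nor did any have an unadjusted p under 0.05. Of all 28326 tested probes, 1.39% were called higher and 0.00353% lower, so 0 of 18 lies near the share called. At an unadjusted p under 0.05 in limma the shares of all probes were 9.06% and 4.26%. With each gene represented by its tested probe of highest mean intensity, 6 genes lay above 0 and 5 below, with a median of 0.03 and a range of -0.14 to 0.25. Over all 18989 tested genes the median was 0.03 and 55.8% lay above 0.

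The highest mitotic gene was Kif18a, whose product aligns chromosomes at the spindle equator. Its log2 ratios were 0.07, 0.31 and 0.37, a mean of 0.25 ± 0.16 (SD, n = 3, adjusted p = 0.427 in limma). Kif23 and Kif20a, motors of cytokinesis, followed with 0.18 ± 0.25 and 0.12 ± 0.25, both positive on replicates 1 and 2 and negative on replicate 3. The second tested probe of each had the opposite mean sign and was negative on all arrays, with means of -0.27 for Kif23 and -0.19 for Kif20a.

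The lowest was Kif11, which pushes spindle poles apart, at -0.16, -0.02 and -0.25, a mean of -0.14 ± 0.12 (SD, n = 3, adjusted p = 0.644 in limma). Kif22, which moves chromosome arms, had -0.13 ± 0.12. Kif4, a motor of chromosomes and the central spindle, had -0.11 ± 0.16. Kif11 and Kif22 were below 0 on all 3 arrays and Kif4 on 2.

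Transport kinesins comprised 15 genes and 38 probes, of which 32 were tested. With 1 probe per gene, 5 genes lay above 0 and 10 below, with a median of -0.12 and a range of -0.40 to 0.29. Here Kif1c was represented by A_51_P217382, the highest of the 15 at 0.29, and the median was -0.12 without Kif1c as well. No representative probe passed the threshold, where 344 of all 18989 tested genes were called higher and 1 lower.

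Kif3c, a subunit of heterotrimeric kinesin-2, had -0.74, -0.20 and -0.26, a mean of -0.40 ± 0.29 (SD, n = 3, unadjusted p = 0.0260, adjusted p = 0.298 in limma). The low mean owed most to replicate 1. Kif16b, which moves early endosomes, had -0.25 ± 0.13 and was negative on all arrays, but its other tested probe had 0.09 ± 0.15. Kif3a and Kif3b, the motor subunits that pair with each other in kinesin-2, had means of -0.15 ± 0.33 and -0.15 ± 0.17. The other tested probe of Kif3a had the opposite sign, at 0.04 ± 0.50, and that of Kif3b had -0.22 ± 0.35.

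Below Kif1c at the upper end, Kif21b, a motor of neurons and immune cells, had 0.67, 0.53 and -0.70, a mean of 0.17 ± 0.76 (SD, n = 3, adjusted p = 0.823 in limma). Replicate 3 had the opposite sign to the other arrays. Without it the mean was 0.60 with an adjusted p of 0.0182 in limma, where 5.47% of all probes were called higher. The other tested Kif21b probes, on all arrays, had means of 0.21 ± 0.06 (A_52_P355222) and -0.18 ± 0.12 (A_52_P614303). Kif5b, the ubiquitous heavy chain of conventional kinesin, had 0.06, 0.60 and -0.24, a mean of 0.14 ± 0.43. Kif5a and Kif5c, its relatives from neurons, had means of -0.00034 and 0.11. Of 13 neuron markers, 7 were tested, with a median of -0.04 and a range of -0.24 to 0.22. Their summed processed signal was 1629 to 2387 in Cy5 and 1757 to 2497 in Cy3. Markers without a tested probe included Syp and Nefm. The part of neurons in the kinesin values was not tested.

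The other kinesins, 9 genes and 16 probes with 12 tested, held the highest and the lowest representative probes of the family. Kif12 and Kif24 lay highest, at 0.84 each. Kif26b, an atypical kinesin that binds microtubules without walking, lay lowest, with -0.51, -0.35 and -0.40, a mean of -0.42 ± 0.08 (SD, n = 3, unadjusted p = 0.00779, adjusted p = 0.188 in limma). Kif2a, a microtubule depolymerase, had -0.27, -0.28 and -0.35 at probe A_51_P271563, a mean of -0.30 ± 0.05 (unadjusted p = 0.0318, adjusted p = 0.320). Both probes were below 0 on all arrays with little spread, yet missed the adjusted threshold. The other tested Kif2a probes had means of 0.01 ± 0.34 (A_52_P582519) and 0.03 ± 0.41 (A_52_P150327), with signs that differed between arrays.

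Kif26a, the relative of Kif26b, did not share its direction on every array, with 0.57, 0.38 and -0.75, a mean of 0.07 ± 0.72 (SD, n = 3). The other tested Kif26a probe (A_51_P476150) had 0.47, -0.09 and 0.31, a mean of 0.23 ± 0.29. Kif7, a regulator of Hedgehog signalling in the cilium, had -0.31, 0.16 and 0.00, a mean of -0.05 ± 0.24. The median of the 7 other kinesin genes tested was -0.03, with 3 above 0 and 4 below.

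**Figure D4:**
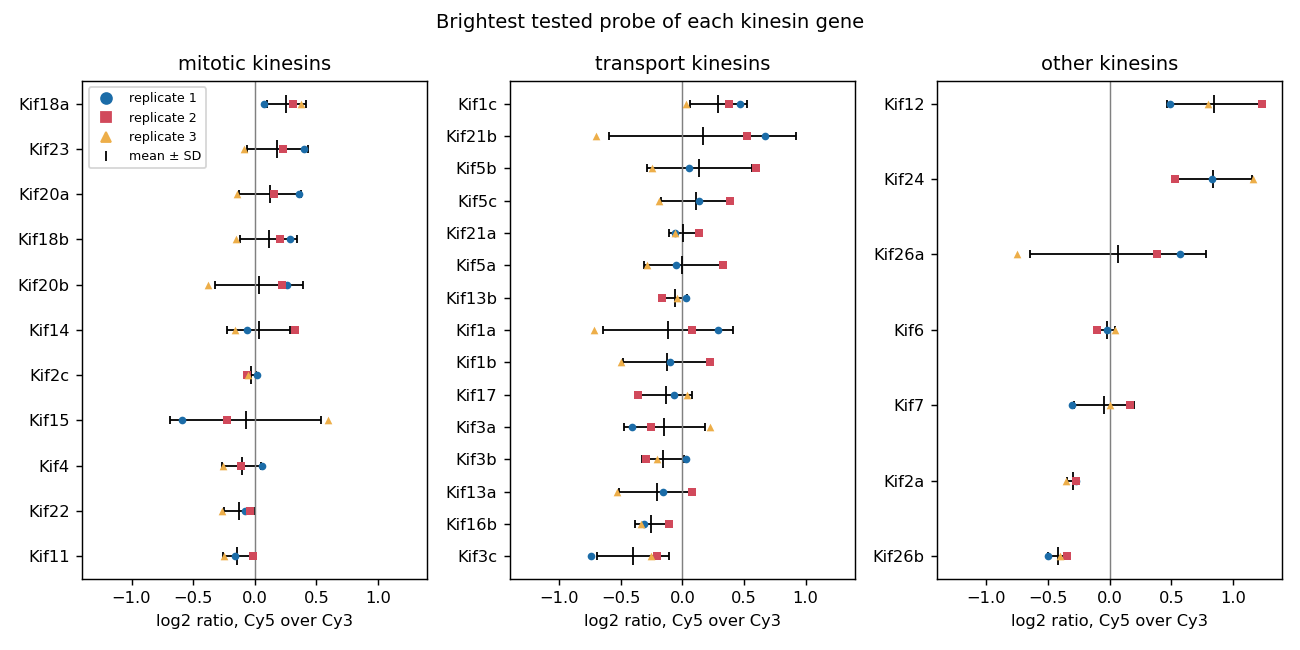
Log2 ratio of Cy5 over Cy3 at the brightest tested probe of each of 33 kinesin genes by class, with 1 point per array and bars for the mean ± SD (n = 3). Most means lie within 0.25 of 0, Kif12 and Kif24 lie at 0.84, and Kif26b at -0.42 is lowest.

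Between the classes, the median of mitotic genes exceeded that of transport genes by 0.15 when taken over gene means. Taken on each array, the difference was 0.11, 0.07 and 0.09 on replicates 1, 2 and 3, a mean of 0.09 ± 0.02 (SD, n = 3). Its sign was the same on every array, although the level of both classes moved between arrays. The median of mitotic genes was 0.05, 0.15 and -0.15, and that of transport genes was -0.05, 0.08 and -0.24. Each class thus moved by over 0.3 between replicates 2 and 3, more than the classes differed, while the medians of all tested genes were 0.02, 0.04 and 0.02. Markers of liver stood apart on replicate 2. The 5 tested of 8 had median log2 ratios of 0.71, -1.97 and 0.17, and their summed processed signal was 25440, 2694 and 3579 in Cy5 against 14820, 29300 and 2329 in Cy3. Of 8 erythroid markers 7 were tested, with medians of -0.02, -0.16 and -0.16. The part of either tissue in the kinesin values was not tested, and without replicate 2 the mitotic and transport medians were -0.02 and -0.09. The difference was 0.04 when all tested probes of a gene were averaged, and 0.05 with median centring in place of loess.

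The rest of the motor machinery gave no call in either direction, where 344 of all 18989 tested genes were called higher and 1 lower. Of 16 kinesins named otherwise, light chains and adaptors, all were tested, with a median of 0.02, and 1 was higher and 2 lower at an unadjusted p under 0.05. Over all tested genes at 1 probe each, the corresponding shares were 10.7% higher and 4.19% lower. Trak1, an adaptor that links kinesin-1 to mitochondria, had 0.71, 0.46 and 0.20, a mean of 0.46 (unadjusted p = 0.0113, adjusted p = 0.218 in limma). Kifap3, which binds the Kif3 motors to cargo, had -0.51, -0.42 and -0.15, a mean of -0.36 (unadjusted p = 0.0238, adjusted p = 0.288). Kifc5b, a minus-end motor of the spindle, also had a mean of -0.36 (adjusted p = 0.283). Each of these kept its sign on 3 arrays.

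Of 23 dynein and dynactin genes, which drive transport towards microtubule minus ends, 22 were tested, with a median of 0.04. Actr1a, the filament subunit of dynactin, was low on all arrays at -0.48, -0.40 and -0.48, a mean of -0.45 (unadjusted p = 0.00496, adjusted p = 0.157 in limma). Actr10, which caps that filament, had a mean of -0.29 (adjusted p = 0.360). These were the 2 lower genes at an unadjusted p under 0.05, with 0 higher, against the same 10.7% higher and 4.19% lower of all tested genes.

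Of 26 mitotic partners, all tested, the median was 0.06, near that of the mitotic kinesins, with 15 above 0 and 11 below, and 3 were higher and 2 lower at an unadjusted p under 0.05, where 10.7% and 4.19% of all tested genes were. Incenp, the scaffold of the Aurora B complex, had a mean of 0.37 (adjusted p = 0.251 in limma), Cdc20, an activator of the anaphase-promoting complex, 0.31 (0.301), and Ckap2, a spindle protein, 0.40 (0.329). Prc1, which bundles the microtubules on which Kif4 works, had -0.53, -0.22 and -0.60, a mean of -0.45 (adjusted p = 0.203). Mki67, a marker of cycling cells, had -0.13, -0.20 and -0.95, a mean of -0.43 (adjusted p = 0.365). Like the mitotic kinesins, the partners had their lowest median on replicate 3, at -0.12, against 0.04 and 0.05 on replicates 1 and 2. Without replicate 3, 3 of 64 genes of the other motor and partner lists were called (4.69%), against 7.16% of all genes.

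**Figure D5:**
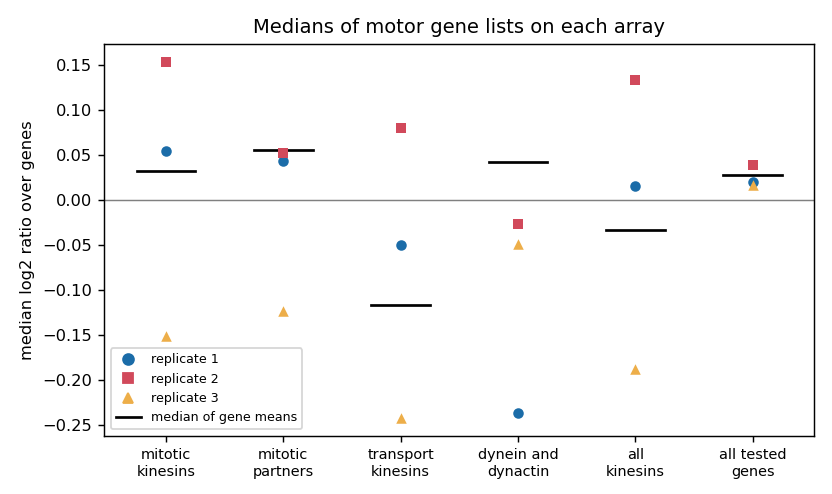
Median log2 ratio of Cy5 over Cy3 over the genes of each list, with 1 point per array and a black line for the median of gene means. Mitotic kinesins lie above transport kinesins on every array, and both lie lowest on replicate 3, while all tested genes stay between 0.02 and 0.04.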

How the data were processed

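Per the labels and file headers, each array held Cy5 and Cy3 spot intensities deposited by the authors, from the software Feature Extraction 9.1.3.1 (replicate 1) or 10.7.3.1 (replicates 2 and 3). The scanner differed in the same way, G2505B for replicate 1 and G2505C for replicates 2 and 3. The software version as a block therefore cannot be told apart from the scanner. The deposited series table held the software's log10 ratios, equal to those of the scanner files (largest difference 0). Mean signals were turned into log2 ratios in limma 3.58.1 (R 4.3.3), with normexp on local background (offset 50) and loess within arrays. Control and non-uniform spots were left out and spots of a probe averaged. A probe was tested if well above background in 1 channel on all 3 arrays, giving 28326 probes, against 0 with lmFit and eBayes (two-sided, Benjamini-Hochberg over all, threshold 0.05). P-values set the mean of the 3 within-array log2 ratios against their spread, moderated over probes. With 1 dye orientation they cannot separate genotype from dye. The number of arrays limits precision. A gene is represented by its tested probe of highest mean intensity. Members, classes and lists were chosen with earlier results of these data known. Named are Lrrc10, every Kif1c probe, the 3 highest and 3 lowest genes of each class, probes with an unadjusted p under 0.05 and the 5 genes whose probes differ most. Genes of other lists with an unadjusted p under 0.05, and relatives named beside them, were added after their values were seen. Gene names and positions (mm9) are those of the files. Scripts were tested on simulated data. The alternatives vary background correction, normalization, filters, array weights, trend, software version, replicates, the test and the probe per gene.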

Additional observations from a re-analysis of the deposited data

How the results depend on the processing

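The comparison rests on 3 arrays of 1 dye orientation, and 11 tested kinesin probes were not well above background in Cy5 on every array. The number of kinesin probes called higher was 0 with the software's processed signals, no background correction, scaling between arrays, the series table, no filter on dim probes, the software version as a block or a one-sample t-test, 1 with median centring, 3 with an intensity trend, 4 with array weights and 0 to 5 without a replicate. The number called lower was 0 under all of these. Over all tested probes, 1.39% were called higher in the main fit and 5.47% without replicate 3. That share is not given for the other settings, so their counts are not set against it. All these counts were made with the Kif1c probe that selected the family included. The adjusted p of Kif24 A_51_P319846 ranged from 0.00923 to 0.55. The Kif1c probe from base 2978 kept its sign throughout, at 1.60 to 1.87 by setting and 1.29 to 1.92 without a replicate. The difference of mitotic minus transport medians stayed above 0, at 0.0855 with the processed signals or the series table, 0.105 with no background correction, 0.0458 with median centring, 0.122 with scaling, 0.116 with no filter, 0.036 with probes averaged and 0.0737 to 0.109 without a replicate. The mitotic median itself was -0.103 with the processed signals, and the transport median 0.0366 without replicate 3. Other motor genes called numbered 0 to 3 without a replicate, the 3 being 4.69% against 7.16% of all genes without replicate 3.

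Signs turned only in probes that were not called on all 3 arrays together, although Kif21b was called without replicate 3. With the processed signals or the series table, values were -0.212 for Kif1b A_52_P458092 (also -0.000835 with no background correction), -0.126 for Kif1c A_52_P113465, -0.103 for Kif20a, -0.0608 for Kif21b, -0.0237 for Kif23 and -0.113 for Kif26a (-0.0454 with scaling). Without a replicate, ranges were -0.205 to 0.0671 for Kif13a A_52_P512994, -0.215 to 0.0218 and -0.298 to 0.0625 for Kif1b A_51_P264956 and A_51_P324097, -0.0878 to 0.6 for Kif21b, -0.114 to 0.00722 for Kif24 A_52_P220858, -0.188 to 0.475 for Kif26a, -0.0923 to 0.329 for Kif5b and -0.152 to 0.0834 for Kif7. The cause was not tested. Each log2 ratio already pairs the pools of 1 array, so no further replicate block was fitted.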

Other observations

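Base content of the probes was examined after the values were seen. The letters CCCTAA in any of 6 rotations, read on the probe as printed, stood in 56.5% of the 395 probes called higher and in 5.25% of all 28326 tested probes. The same letters of the opposite strand (TTAGGG in any of 6 rotations) stood in 3.04% and 4%. Among 62 tested kinesin probes, 2 held CCCTAA in a rotation. These were Kif12 A_52_P221776, with a mean log2 ratio of 0.84, and Kif5c A_52_P299903, with 0.11. The Kif1c probe from base 2978 held none.

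A run of 3 cytosines (CCC, as printed) stood in 80.3% of probes called higher and in 37.6% of all tested probes. It stood in 20 kinesin probes, whose median log2 ratio was 0.06, against -0.06 in those without it. All 4 kinesin probes with an unadjusted p under 0.05 and a positive mean held CCC (Kif1c, Kif24, Kif12 and Kif13a), as did 1 of the 4 with a negative mean. The opposite run, GGG, stood in 27.6% of probes called higher and in 38.8% of all, yet also in all 4 of those kinesin probes and in 1 of the 4 with a negative mean. The 4 probes with a positive mean include the Kif1c probe whose ratio selected the family, which also enters the median of 0.06. Leaving it out, 3 remained (Kif24, Kif12 and Kif13a). The part of these letters in the kinesin values was not tested.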
